A study of Mus musculus with 24 samples.

Results

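F4/80hiMHCIIlow macrophages sorted from colon tumours were compared with cells of the same gate from colon lamina propria (LP), the connective tissue under the gut epithelium. The comparison held 6 of the 24 RNA-seq libraries of the series, taken by their labels alone: LP donors II, III and IV, and tumour donors I, V and VII. Of 17301 deposited genes, 12878 had a mean of at least 1 RPKM (read number scaled for transcript length and library size) in at least 1 of the 8 sorted groups and were tested. The series also holds MHCIIhi macrophages, monocytes and neutrophils of both tissues, with 3 libraries in each group, and asked how myeloid cells of colon tumours differ from those of the normal colon. Tumour donors were young adult mice labelled APC/Min, which carry the multiple intestinal neoplasia allele of the tumour suppressor Apc in every cell, macrophages included, and their colon tumours developed after dextran sodium sulphate in the drinking water. LP donors were labelled C57/BL with healthy LP, whereas the study describes its wild-type donors as having received dextran sodium sulphate as well, so the treatment of the LP donors was not settled by the sources used here. Every library was made from the pooled tissue of several mice, so p-values measure the spread between such pools. Both tissues were digested with collagenase D. The epithelium of LP was first removed with EDTA, whereas tumours were digested for a shorter time with DNase I added and separated on another Percoll density. Tissue, genotype and isolation therefore cannot be told apart.

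Resident macrophages of the gut wall engulf dying cells and microbes, release interleukin-10 and help repair the mucosa. MHC class II molecules present peptides to CD4+ T cells, so cells low in them form the less antigen-presenting share of the gate. In solid tumours, macrophages are known for proteases that cut the extracellular matrix, for cytokines and for altered metabolism.

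The sort was checked first. Adgre1, which encodes F4/80, held 251, 247 and 276 RPKM in LP II, III and IV and 248, 297 and 274 in tumour I, V and VII, and did not differ (log2 difference 0.08 ± 0.19 SE, adjusted p = 0.83). Csf1r, the receptor for the macrophage growth factor CSF-1, was at 405 to 549 RPKM in LP and 571 to 747 in tumour. The summed level of the macrophage markers was 13588 to 14895 RPKM in LP and 18593 to 25386 in tumour libraries. Other markers also moved with the tissue, and their part in the results was not tested. Fibroblast markers summed to 36.7 to 112 RPKM in LP and 13.9 to 18.3 in tumour, and 13 of the 15 tested were called lower in tumour. B and plasma cell markers summed to 418, 1157 and 2050 RPKM in LP II, III and IV and 237, 206 and 713 in tumour I, V and VII. Of the 16 tested, 14 had a negative difference (median log2 difference -1.67), and 2 were called lower (Igkc and Xbp1). Neutrophil markers summed to 48.1 to 138 RPKM in LP and 333 to 816 in tumour. Of the 22 tested, 5 were called higher (Retnlg, Mmp9, Mmp8, Ly6g and Il1r2) and 1 lower (median log2 difference 1.5). Csf3r, S100a8 and S100a9 were not called. Mmp9 made up 645, 468 and 205 RPKM of the sums of 816, 612 and 333 in tumour I, V and VII. Mmp8, a neutrophil collagenase, held 0.0197, 3.14 and 2.88 RPKM in LP and 11.8, 13.3 and 7.24 in tumour (log2 4.13 ± 1.13, adjusted p = 0.011), and its log2 difference was 1.79 without LP II. Ly6g had no reads in LP and held 1.6, 0 and 0.228 RPKM in tumour; its call was lost without LP II, LP IV, tumour I or tumour VII (adjusted p = 0.051 to 0.16), and that of Retnlg without LP II or LP IV. Camp had no reads in any of the 6 libraries. Epithelial markers reached 349 RPKM in tumour I, against 21 to 50.1 in the other 5 libraries. In bulk RNA, fewer cells of a type and less RNA per cell cannot be told apart.

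LP II stood apart from LP III and IV. Of 3346 genes with a mean of at least 10 RPKM over the 6 libraries, LP II was more than 2-fold above both other LP libraries for 46 and more than 2-fold below both for 124, whereas the same counts were 25 and 14 for LP III and 19 and 6 for LP IV. LP II was high in heat shock genes (Hspa1a at 783 RPKM, against 80.2 and 116) and low in Itgax, Mmp12 and the MHC class II gene H2-Ab1 (102 RPKM, against 715 and 411). Libraries correlated at r = 0.871 to 0.912 within a tissue and 0.783 to 0.797 between tissues over the 12878 genes. Values without LP II are given for some of the results.

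In tumour MHCIIlow macrophages, 1483 genes were called higher than in LP and 1520 lower at an adjusted p under 0.05, which is 11.5% and 11.8% of the genes tested. Among the genes called, the median log2 difference was 1.28 for those higher and -1.41 for those lower, and 377 and 550 genes differed by more than 4-fold. The median over all tested genes was 0.06. All 3 tumour libraries lay above all 3 LP libraries for 2925 genes (22.7%) and below them for 2491 (19.3%). Of the 3003 genes called, 2848 did not overlap between tissues, so a lack of overlap adds little for a called gene. Without LP II, 1234 genes were called higher and 1201 lower, of which 1109 and 1149 were also called with it. The larger rises included the cell fusion gene Dcstamp and the membrane protein gene Tmem119, and the larger falls included the interferon-related Ifit1 and the fibroblast gene Lum.

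**Figure D1:**
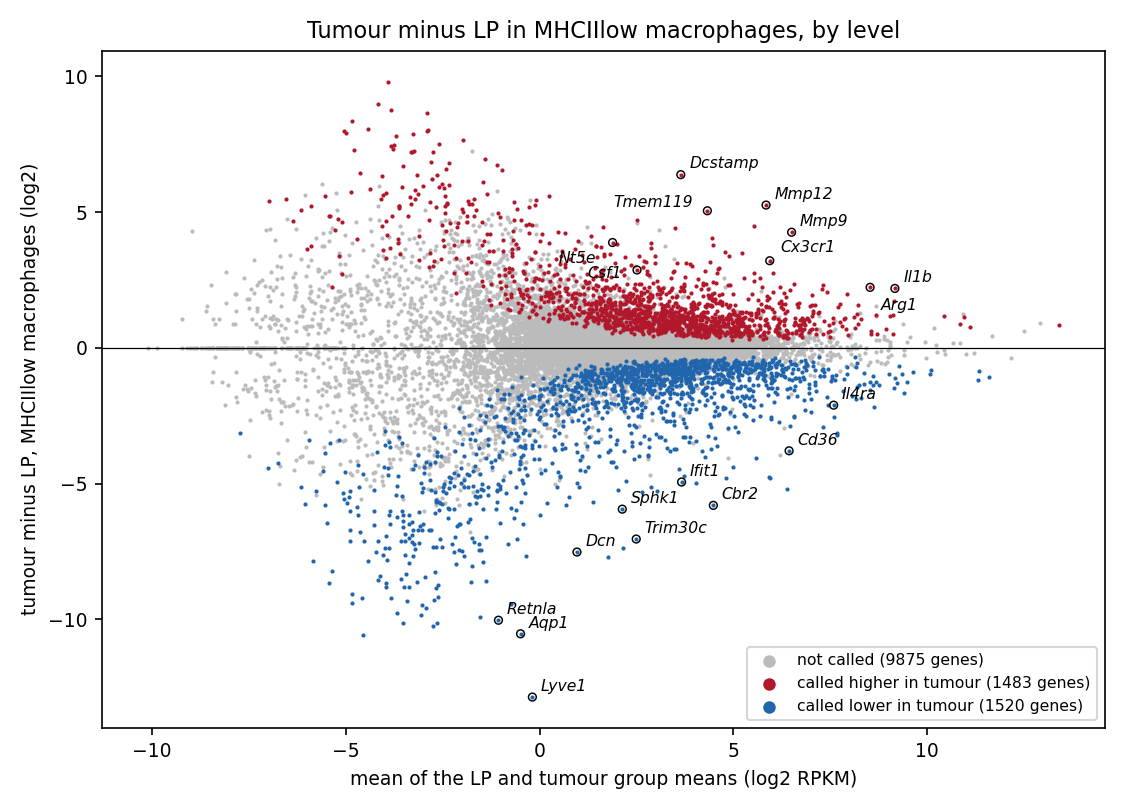
Each point is 1 of the 12878 tested genes, with its mean level over the 6 MHCIIlow libraries (log2 RPKM, x) and the tumour minus LP difference (log2, y). The 1483 genes called higher and the 1520 called lower are coloured, and the 9875 not called are grey; differences are widest among genes with few reads, where the fitted value depends on the count added before the logarithm.

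Matrix-degrading proteases were among the genes that rose most. Of 22 tested metalloproteinases and their inhibitors, 9 were called higher and 6 lower (median log2 difference 0.58, against 0.06 over all genes), and the inhibitors Timp1, Timp2 and Timp3 were all among the 6. Mmp12, the macrophage elastase (chr9:7344381-7369499, GRCm38), held 2.32, 19.4 and 17.7 RPKM in LP II, III and IV and 296, 437 and 346 in tumour I, V and VII. The rise was 38.4-fold (log2 5.26 ± 0.54, adjusted p = 7e-07), and the lowest tumour library lay far above the highest LP library. Mmp9, a gelatinase that cuts denatured collagen, held 7.6, 54.1 and 21.5 RPKM in LP and 645, 468 and 205 in tumour (log2 4.26 ± 0.52, adjusted p = 5.5e-06). Mmp9 is also on the list of neutrophil markers. Mmp2, the other gelatinase, held 1.98, 11.7 and 6.49 RPKM in LP and a narrow 85.5 to 93.7 in tumour (log2 4.06 ± 0.49, adjusted p = 3.8e-06). The log2 differences without LP II were smaller, at 4.26 for Mmp12, 3.54 for Mmp9 and 3.35 for Mmp2. The collagenase Mmp13 and the membrane-bound Mmp14, which can activate pro-MMP2, rose as well. Mmp13 was at 48.5 to 97.5 RPKM in LP and 248 to 384 in tumour (log2 2.17), and Mmp14 at 20.6 to 71.5 and 149 to 160 (log2 1.86). Adam10, a sheddase of membrane proteins, rose by a log2 of 1.09. Mmp19 moved the other way, from 419, 432 and 463 RPKM in LP to 94.6, 69.6 and 30.1 in tumour (log2 -2.91 ± 0.40, adjusted p = 1.8e-05), although 28.3% of its exon length overlaps Tmem198b and reads there may be split. Timp1, which blocks most matrix metalloproteinases, held 24.8, 17.5 and 13 RPKM in LP and 0.593, 1.85 and 0.563 in tumour (log2 -4.37 ± 1.3, adjusted p = 0.018). The call of Timp1 was lost without LP II (adjusted p = 0.06), without tumour I (adjusted p = 0.057) or without tumour VII (adjusted p = 0.063), and that of Timp2 without LP II (adjusted p = 0.06). Timp3 was called in none of the fits that left out 1 of the 6 libraries (adjusted p = 0.057 to 0.094). Without LP II, 3 of the 22 genes were called lower.

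Matrix and adhesion genes moved in both directions. Of 28 tested matrix genes, 2 were called higher and 12 lower (median -0.77), on a list of matrix proteins and proteases of macrophages. From the separate list of fibroblast markers, the proteoglycan Lum held 1.28, 10.3 and 10.4 RPKM in LP and had no reads in tumour, which is at least 158-fold lower at a floor of 3 reads per library. Among genes that macrophages express strongly, Spp1 (osteopontin) held 33.9, 208 and 52.3 RPKM in LP and 217, 746 and 278 in tumour (log2 2.31 ± 0.49, adjusted p = 0.0016). Fn1 (fibronectin) rose by a log2 of 1.97. Cd44, the hyaluronan receptor, fell from 315, 295 and 362 RPKM to 108, 106 and 66.1 (log2 -1.82 ± 0.20, adjusted p = 1.3e-06). The syndecan Sdc4 fell from 774 to 937 RPKM down to 142 to 269 (log2 -2.18), and the galectin Lgals3 from 864 to 1069 down to 258 to 401 (log2 -1.48). F13a1, a transglutaminase that cross-links fibrin, held 450, 117 and 137 RPKM in LP and 15.6, 11.7 and 8.89 in tumour (log2 -4.04). None of the LP and tumour ranges of these 6 expressed genes overlapped, as for 2848 of the 3003 genes called.

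Dcstamp (chr15:39745930-39760938, GRCm38), which macrophages need to fuse into multinucleated cells, had the largest log2 rise of the tested genes with a mean of at least 10 RPKM in tumour. It held 0.762, 1.63 and 2.01 RPKM in LP and 97.5, 136 and 111 in tumour (83.4-fold, log2 6.38 ± 0.38, adjusted p = 1.2e-09). Of the 14 osteoclast-associated genes tested, to which Dcstamp belongs, 4 were called higher and 4 lower (median 0.08), with 2 called lower without LP II or without tumour VII.

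Tmem119 (chr5:113793729-113800516), a membrane protein used as a marker of microglia, held 1.73, 5.57 and 4.35 RPKM in LP and 77.5, 126 and 156 in tumour (33.1-fold, log2 5.05 ± 0.49, adjusted p = 3.5e-07). Olfml3, a secreted olfactomedin-like protein, held 2.77, 8.41 and 9.03 RPKM in LP and 69.4, 91.7 and 89.2 in tumour (log2 3.8). The fractalkine receptor Cx3cr1 held 11.7, 23.9 and 29.1 RPKM in LP and 164, 194 and 202 in tumour (log2 3.21 ± 0.62, adjusted p = 0.00071). Groups were apart for all 3 genes, as for most genes called. Itgax, which encodes the integrin CD11c, rose from 3.53, 20.3 and 10.9 RPKM to 85, 116 and 87.6 (log2 3.37 ± 0.38, adjusted p = 1.9e-06), and the beta-glucan receptor Clec7a from 18 to 67 up to 152 to 210 (log2 2.15). Summed dendritic cell markers, of which Itgax is the main one, were at 72.6 to 118 RPKM in LP and 169 to 198 in tumour.

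Receptors and bridging proteins for the uptake of dying cells split. Of 24 tested, 6 were called higher and 4 lower (median 0.04). Mfge8, a secreted bridge between phosphatidylserine and integrins, rose from 10, 15.7 and 5.8 RPKM to 215, 337 and 148 (22.7-fold, log2 4.5 ± 0.51, adjusted p = 2.3e-06). The receptor kinases Axl and Mertk rose by log2 2.01 and 1.96, with Mertk at 8.95 to 13.4 RPKM in LP and 31.6 to 50.4 in tumour. Cd36, a scavenger receptor for oxidised lipids and dying cells, fell from 469, 221 and 323 RPKM to 15.8, 32 and 25.1 (13.8-fold, log2 -3.79 ± 0.73, adjusted p = 0.00066). Timd4, a phosphatidylserine receptor of long-lived resident macrophages, fell from 5.56, 6.62 and 10.7 RPKM to 0.173, 0.653 and 0.181 (log2 -4.72, adjusted p = 0.019), a call that was lost without LP IV (adjusted p = 0.064), tumour I (adjusted p = 0.063) or tumour VII (adjusted p = 0.065).

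Several genes of perivascular and long-lived resident macrophages were nearly silent in tumour cells. Of 46 tested genes of intestinal resident macrophages, 10 were called higher and 12 lower (median 0.00). Lyve1, a hyaluronan receptor (chr7:110850607-110863239), held 298, 30.2 and 47.6 RPKM in LP, or 32258, 1694 and 2197 reads, and 6, 0 and 0 reads in tumour I, V and VII. With so few reads, the fitted size depends on the count added before the logarithm, so no fold is given. Cd163, the receptor for haemoglobin bound to haptoglobin, held 61.3, 25.7 and 37.6 RPKM in LP and 0.293, 1.7 and 1.97 in tumour (log2 -5.29 ± 1.41, adjusted p = 0.0089), and its adjusted p was 0.05 without tumour I. The carbonyl reductase Cbr2 fell from 232, 108 and 184 RPKM to 2.04, 2.52 and 5.12 (55.9-fold, log2 -5.8 ± 1.14, adjusted p = 0.00083). The mannose receptor Mrc1 held 273, 183 and 218 RPKM in LP and 74.1, 85.3 and 53.5 in tumour, with an adjusted p of 0.046 that became 0.065 to 0.14 when any 1 of the 6 libraries was left out. The complement component genes C1qa, C1qb and C1qc, which resident macrophages make in large amounts, were not called. Gja1, the gap junction protein connexin 43, fell from 81.1, 39.1 and 40.3 RPKM to 1.12, 2.05 and 0.967 (log2 -5.27), and the endothelin receptor gene Ednrb from 216, 112 and 131 to 6.43, 5.61 and 4.1 (log2 -4.8 ± 0.52, adjusted p = 1.2e-06).

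**Figure D2:**
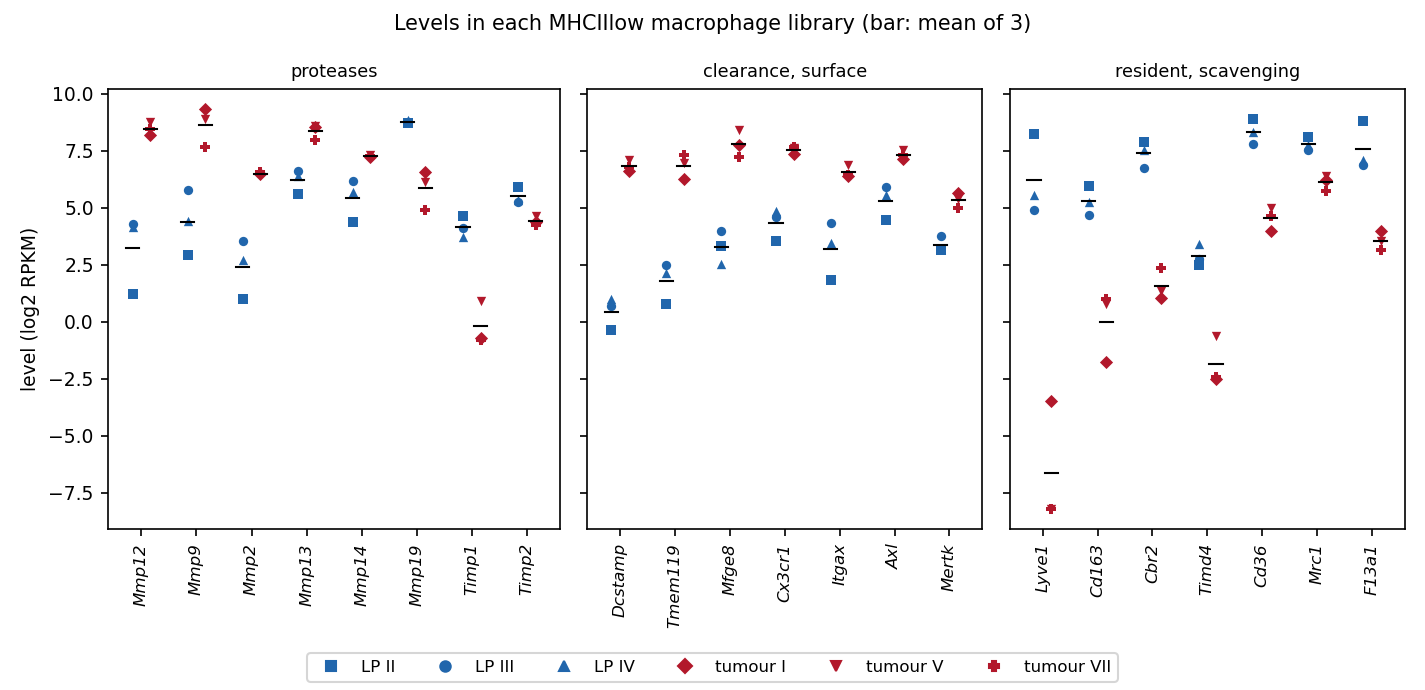
Levels (log2 RPKM) of proteases and inhibitors, of clearance and surface genes, and of resident macrophage genes in each MHCIIlow library; blue points are LP II, III and IV, red points tumour I, V and VII, with 1 marker shape per library, and bars are means of 3 log2 values; the Lyve1 points without reads sit where the count added before the logarithm puts them. Mmp12, Dcstamp and Tmem119 are higher in all 3 tumour libraries, and Lyve1, Cd163, Cbr2 and Cd36 are lower in all 3.

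Alternative activation genes, those induced in macrophages by interleukin-4, went apart from each other. Of 25 tested, 5 were called higher and 8 lower (median -0.14). Il4ra, the interleukin-4 receptor alpha chain, held 480, 354 and 371 RPKM in LP and 107, 88.1 and 83.4 in tumour (4.32-fold, log2 -2.11 ± 0.14, adjusted p = 4.8e-09). The transcription factors Irf4 and Klf4 also fell, Irf4 from 16.9, 7.13 and 10.5 RPKM to 0.303, 0.126 and 1.06 (log2 -4.96) and Klf4 from 24.2 to 39.4 down to 5.63 to 12.4 (log2 -1.85). Retnla, a secreted resistin-like protein, held 7.98, 22.5 and 20.6 RPKM in LP and no reads in tumour, at least 106-fold lower. Arg1, the arginase of the same programme, rose instead, from 42.9, 260 and 439 RPKM to 1122, 862 and 524 (4.69-fold, log2 2.23 ± 0.57, adjusted p = 0.0072).

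Interferon-stimulated genes, which cells switch on after type I interferon binds its receptor, formed the list with the most members lower. Of 41 tested, 26 were called lower and 2 higher (median -1.56), and for 26 the 3 tumour libraries lay below the 3 LP libraries. Without LP II, 24 were called lower and 0 higher. Over all tested genes, 11.8% were called lower and 19.3% lay below in this way, with all 6 libraries. An interferon response element lies in the promoters of 64.5% of the 31 listed genes that have a promoter in the RefSeq table (GRCm38.p6, 250 bases before to 50 after the start, both strands). It was found in 3.97% of the 9067 promoters of all tested genes, in 5.71% of those of genes called lower and in 5.43% of those of genes called higher. The list was chosen as interferon-stimulated genes, so its share describes that choice and is no test. Promoter stretches that hold it are shown for a few of the listed genes that fell most, with the element in capitals as it reads on the gene's strand. They lie at chr19:34640760-34640838 (Ifit1, plus strand), chr12:26456538-26456597 (Rsad2, minus strand) and chr19:34583348-34583441 (Ifit3, plus strand).
Ifit1: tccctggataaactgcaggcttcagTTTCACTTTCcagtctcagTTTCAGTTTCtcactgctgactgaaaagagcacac
Rsad2: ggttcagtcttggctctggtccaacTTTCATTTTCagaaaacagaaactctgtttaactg
Ifit3: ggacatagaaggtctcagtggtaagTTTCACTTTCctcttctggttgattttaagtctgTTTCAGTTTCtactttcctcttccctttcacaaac

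Ifit1, which binds viral RNA and carries 2 elements 76 to 104 bases before its start, held 76.6, 85.5 and 52.6 RPKM in LP and 2.1, 2.47 and 2.29 in tumour (30.7-fold, log2 -4.94 ± 0.37, adjusted p = 1.7e-08). Rsad2 (viperin), with 1 element 111 to 120 bases before its start, held 27.9, 63.9 and 39.2 RPKM in LP and 3.86, 2.36 and 3.36 in tumour (log2 -3.72). Ifit3, with 2 elements 113 to 156 bases before its start, fell by 3.40 on the log2 scale, although 50.8% of its 51-base stretches also occur in Ifit3b. The LP and tumour ranges were far apart for all 3. Oasl1, a 2'-5' oligoadenylate synthetase-like gene, fell from 153, 191 and 109 RPKM to 14.2, 7.32 and 3.26 (log2 -4.4), and Oas2 from 18.5 to 22.6 down to 1.94 to 2.26 (log2 -3.25 ± 0.25, adjusted p = 2.1e-08). Cmpk2, Mx1 and Usp18, the last of which damps interferon signalling, fell by 3.85, 3.55 and 3.49 on the log2 scale. Irf7 and Irf9, transcription factors of the pathway, fell by 1.64 and 1.40. Trim30c, a member of an interferon-responsive gene family (chr7:104382065-104400837), was not on the list. It fell further than any gene on the list, from 105, 42.4 and 59.3 RPKM to 0.781, 0.237 and 0.603 (log2 -7.04 ± 0.35, adjusted p = 1.6e-10). Of the receptor chains, Ifnar1 and Ifngr1 rose and Ifnar2 was not called (log2 -0.11, adjusted p = 0.66). Ifnar1, for type I interferon, held 23.9 to 28.3 RPKM in LP and 47.3 to 58.4 in tumour (log2 1.04 ± 0.12, adjusted p = 2.9e-06), and Ifngr1, for interferon gamma, 42.1 to 44.5 and 126 to 136 (log2 1.6). Gbp7, a guanylate-binding protein, was 1 of the 2 listed genes called higher, and its call was lost without any 1 of the 6 libraries (adjusted p = 0.057 to 0.14). The gamma-inducible chemokine Cxcl10 was at 49 to 84.6 RPKM in LP and 25.8 to 63.1 in tumour and was not called.

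MHC class II genes leaned upward although both populations were gated low for the protein. Of 10 tested, 5 were called higher and 0 lower (median 1.69). With 1 library left out, 8 were higher without LP III or tumour VII, and 4 without LP II, LP IV, tumour I or tumour V. The median was 1.11 without LP II, and 3 were higher in a fit of the 6 libraries alone. Ciita, the master activator of these genes, held 1.79, 2.52 and 1.37 RPKM in LP and 9.3, 6.34 and 4.53 in tumour (log2 1.81 ± 0.36, adjusted p = 0.00085). H2-DMa, a subunit of the peptide-loading molecule, held 24.9, 58 and 47.1 RPKM in LP and 175, 148 and 82.1 in tumour (log2 1.65 ± 0.37, adjusted p = 0.0023). The peptide-presenting chains themselves overlapped between tissues. H2-Ab1 held 102, 715 and 411 RPKM in LP and 2118, 1411 and 359 in tumour (log2 1.72 ± 0.60, adjusted p = 0.043), and the call was lost without LP II (adjusted p = 0.28), LP IV (adjusted p = 0.054), tumour I (adjusted p = 0.21) or tumour V (adjusted p = 0.15). H2-Aa (adjusted p = 0.14) and the invariant chain Cd74 (adjusted p = 0.069) were not called. Of 19 tested class I genes, 6 were called higher and 2 lower, and H2-D1 fell from 1367 to 1541 RPKM down to 671 to 970 (log2 -0.83).

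The interleukin-1 ligands Il1b and Il1a rose, while their antagonist and several other family genes fell. Il1b held 199, 314 and 309 RPKM in LP and 1607, 1223 and 939 in tumour (4.57-fold, log2 2.19 ± 0.28, adjusted p = 9.7e-06). Il1a held 100 to 165 RPKM in LP and 411 to 628 in tumour (log2 1.98). Il1rn, the receptor antagonist, fell from 606, 520 and 597 RPKM to 267, 252 and 201 (log2 -1.26 ± 0.18, adjusted p = 2.7e-05). The groups did not overlap for these 3 genes, as for most genes called. Il1r2, a decoy receptor, rose by a log2 of 1.6 and Il18bp, which neutralises interleukin-18, by 2.0. The whole family of 19 had 5 members higher and 7 lower (median -0.44), and 5 and 4 without LP II. Besides Il1rn, those called lower with all libraries were Il33, Il18, Il1r1, Il1rap, Casp1 and Myd88.

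Other cytokines split evenly, with 12 of 38 tested called higher and 12 lower (median -0.04). Csf1, the macrophage growth factor, rose from 2.25, 2.61 and 1.59 RPKM to 15.8, 19.3 and 11.9 (7.29-fold, log2 2.87 ± 0.41, adjusted p = 3.4e-05). Tnfsf13b, the B cell survival factor BAFF, rose by a log2 of 3.86, and Osm (oncostatin M) by 1.57, from 76.3 to 85 RPKM in LP to 193 to 307 in tumour. Among those that fell, Il10, the anti-inflammatory product of gut macrophages, held 236, 79.5 and 101 RPKM in LP and 34.7, 18.5 and 15.6 in tumour (5.74-fold, log2 -2.52). Tnfsf14 (LIGHT) held 72, 24.7 and 35.5 RPKM in LP and 1.54, 5.41 and 3.34 in tumour (log2 -3.71 ± 0.38, adjusted p = 6.5e-07), and Il15 fell by 2.27 on the log2 scale. Tnf, at 57.7 to 77.4 RPKM in LP and 75.8 to 116 in tumour, was not called (adjusted p = 0.27).

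NF-kB pathway genes, which include the subunits of this inflammatory transcription factor and its feedback inhibitors, were mostly lower. Of 21 tested, 1 was called higher and 11 lower (median -0.58). Nfkb1 held 60.3, 49.7 and 49.8 RPKM in LP and 20.6, 17.9 and 14.2 in tumour (log2 -1.61 ± 0.18, adjusted p = 2e-06), and Relb fell from 33.6 to 52.1 down to 12.4 to 19.4 (log2 -1.32). Nfkbie, an inhibitor, was the gene called higher (log2 0.79).

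Chemokines of the CC family fell more often than they rose, with 6 of 12 lower and 1 higher (median -1.26). Ccl2, which draws monocytes out of the blood, held 331, 192 and 260 RPKM in LP and 49.1, 41.4 and 71.2 in tumour (log2 -2.28), and the eosinophil attractant Ccl24 fell from 53.3 to 66.5 RPKM down to 3.6 to 13.1 (log2 -2.93). The gene called higher was Ccl3, at 65 to 87.5 RPKM in LP and 134 to 189 in tumour, with an adjusted p of 0.011 that became 0.051 without tumour I. Of 14 CXC chemokines, 3 were called higher and 2 lower (1 lower without tumour VII), among them Cxcl14, which rose from 4.28, 7.28 and 4.96 RPKM to 30.1, 35 and 34.2 (log2 2.62 ± 0.44, adjusted p = 0.00018). Fpr1, a receptor for bacterial formyl peptides, rose from 2.62, 16.3 and 16.2 RPKM to 88.8, 63.4 and 51.4 (log2 2.9), whereas C5ar1, for the complement fragment C5a, fell by 1.25 on the log2 scale.

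**Figure D3:**
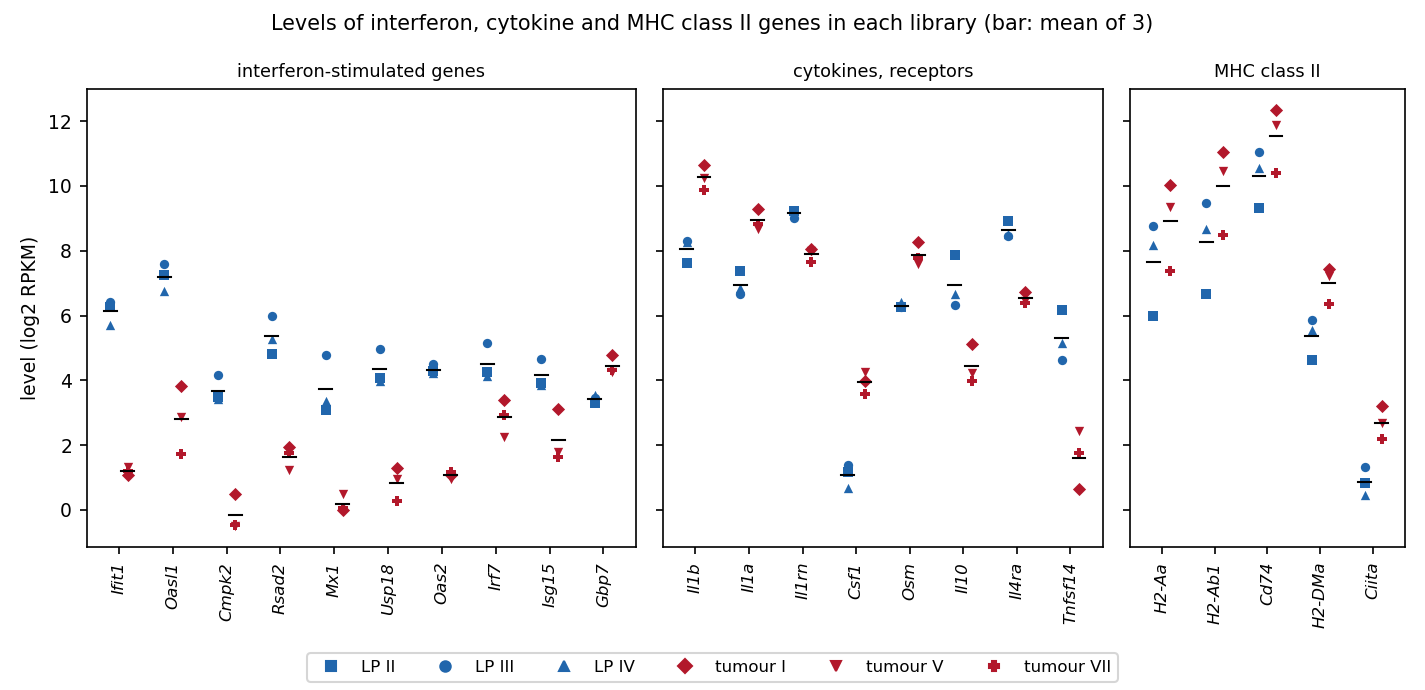
Levels (log2 RPKM) of interferon-stimulated genes, cytokines with their receptors, and MHC class II genes in each MHCIIlow library; blue points are LP II, III and IV, red points tumour I, V and VII, and bars are means of 3 log2 values. Tumour points lie below LP points for Ifit1, Oasl1 and Oas2 and above them for Il1b and Csf1, while H2-Ab1, H2-Aa and Cd74 overlap.

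The arginases and the inducible nitric oxide synthase rose, while other genes of arginine and polyamine metabolism fell. Besides Arg1, the other arginase, Arg2, rose by a log2 of 1.99. Nos2, the inducible nitric oxide synthase, held 0.046, 0.0443 and 1.31 RPKM in LP and 6.63, 7.83 and 4.63 in tumour (log2 5.44 ± 0.87, adjusted p = 0.00011). Ass1, which rebuilds arginine from citrulline, held 0.909, 6 and 2.65 RPKM in LP and 43.4, 55.4 and 57.2 in tumour (21.2-fold, log2 4.4), and 38.4% of its 51-base stretches are shared with Gm5424. Its log2 difference was 3.69 without LP II. The arginine importer Slc7a2 rose by 2.71 and another, Slc7a1, fell by 1.44 on the log2 scale. In all, 7 of 27 arginine and polyamine genes were called higher and 4 lower (Slc7a1, Odc1, Oat and Azin1), with 2 lower without LP II, LP IV or tumour VII.

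Genes known to respond to low oxygen leaned upward, with 15 of 47 higher and 5 lower (median 0.69, and 0.57 with the 3 members that lacked reads in a group set at their bound), and 2 or 3 were lower when any 1 of the 6 libraries was left out. Bnip3, a mitophagy receptor, held 9.24, 8.85 and 7.76 RPKM in LP and 40.7, 48.2 and 43.1 in tumour (log2 2.35 ± 0.20, adjusted p = 1.1e-07). Vhl, which marks hypoxia-inducible factors for degradation, rose by 2.39, and Ndrg1, another hypoxia-responsive gene, fell from 57.8, 30.4 and 32.3 RPKM to 4.42, 2.39 and 2.07 (log2 -3.78). Hif1a itself was at 59.7 to 75.9 RPKM in LP and 62 to 80 in tumour (log2 0.04 ± 0.14, adjusted p = 0.88). The hypoxia core ACGTG, which the E-box CACGTG also contains, was found on either strand in 69.4% of the 36 listed promoters and in 29.4% of the promoters of all tested genes. It was found in 31.6% of the promoters of genes called higher and in 30.7% of those of genes called lower. The list was chosen as genes known to respond to low oxygen, so its share describes that choice and is no test.

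Of 34 citric acid cycle and pyruvate genes, 13 were called higher and 1 lower (median 0.56). Cs, the citrate synthase, rose from 41, 33.5 and 42.2 RPKM to 58.6, 71.2 and 74.4 (log2 0.81 ± 0.12, adjusted p = 4.3e-05), and Pdk1, which holds pyruvate back from the cycle, by a log2 of 2.88. Of 79 nuclear genes for respiratory chain subunits, 13 were called higher and 0 lower (median 0.46), among them Sdha (log2 0.59), beside 11.5% higher and 11.8% lower over all genes. Without tumour V, 8 of the first list and 7 of the second were called higher, and without tumour I, 1 of the second was called lower. Of 12 subunits encoded in the mitochondrial genome, 0 were called higher and 6 lower (median -0.97). Their summed level was 9861 RPKM in LP II, 18027 and 19209 in LP III and IV, and 7936 to 9231 in tumour, so that LP II lay nearer the tumour libraries than the other LP libraries. The mitochondrial mt-Nd5, a complex I subunit, held 764, 1233 and 1455 RPKM in LP and 470, 418 and 500 in tumour (log2 -1.27 ± 0.19, adjusted p = 4.6e-05). Cytosolic ribosomal protein genes had a similar median to the nuclear subunits, 0.45, with 8 of 83 higher and 1 lower, and 2 to 5 higher when any 1 of the 6 libraries was left out.

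Of 60 lysosomal genes tested, 19 were called higher and 10 lower (median 0.27). Enzymes that break down sugars and lipids were called in both directions. Gusb, a glucuronidase, held 38.4 to 45.2 RPKM in LP and 109 to 153 in tumour (log2 1.71 ± 0.21, adjusted p = 6.2e-06), and the mannosidase Man2b1 77.7 to 87.6 and 174 to 269 (log2 1.36). Psap, the precursor of the saposins that present lipids to these enzymes, rose from 1114, 1587 and 1358 RPKM to 2816, 3378 and 2720 (log2 1.14). The galactosidase Gla fell from 55.7, 48.2 and 46.1 RPKM to 27.6, 22.6 and 21.5 (log2 -1.07), and Hyal1, a hyaluronidase with exons that overlap Naa80, by 1.80 on the log2 scale. The proton pump that acidifies the lysosome has a cytosolic and a membrane part. All 6 tested subunits of its cytosolic V1 part were called lower (median -0.71), and none of 5 subunits of the membrane V0 part was called (median -0.11), a division that was drawn after the values were seen. Atp6v1a, the catalytic subunit, held 129, 93.1 and 116 RPKM in LP and 57.2, 57.4 and 51.3 in tumour (log2 -1.02 ± 0.14, adjusted p = 1.8e-05). The weakest of the 6 calls were those of Atp6v1e1, which was lost without LP II, III or IV or tumour V or VII (adjusted p = 0.08 to 0.21), and Atp6v1d, lost without LP II, LP IV or tumour VII (adjusted p = 0.053 to 0.068). Of 17 cathepsins and their inhibitors, 7 were called higher and 2 lower (1 lower without LP II or without tumour VII), with Ctsz rising from 791 to 1040 RPKM up to 1835 to 2330 (log2 1.18) and Ctsc from 328 to 356 up to 737 to 827 (log2 1.19).

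The oxidative burst machinery rose. Of 9 NADPH oxidase genes tested, 4 were called higher and 0 lower (median 1.15). Cybb, the catalytic subunit, held 67.1, 106 and 108 RPKM in LP and 211, 249 and 220 in tumour (log2 1.3), and Ncf1, its cytosolic organiser, 20.7 to 30.8 and 53.9 to 75.7 (log2 1.29 ± 0.20, adjusted p = 6e-05). Pattern recognition genes had 13 of 33 higher and 4 lower (median 0.52). Without tumour I, V or VII, 7 or 8 were higher, and without LP II, LP IV or tumour V, 1 or 2 were lower. Nlrc4, the inflammasome protein that responds to flagellin, rose from 4.15 to 4.58 RPKM up to 12.1 to 15.3 (log2 1.62), its partner Naip2 by 1.61, and Tmem173 (STING), the sensor of cyclic dinucleotides, by 1.31.

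Complement genes had 3 of 20 higher and 6 lower (median -0.17). C3, the central component, rose from 8.55, 35.3 and 17.1 RPKM to 67.6, 49 and 42.8 (log2 1.59 ± 0.31, adjusted p = 0.00075). Among 27 integrin and adhesion genes, 8 were called higher and 4 lower, and Itgal, the alpha chain of LFA-1, rose from 1.65, 7.7 and 4.75 RPKM to 27.1, 42.5 and 35.6 (log2 3.13 ± 0.35, adjusted p = 1.5e-06).

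Eicosanoid and nucleotide metabolism shifted in named enzymes. Ptgs2 (COX-2), the inducible prostaglandin synthase, held 24.8, 19.3 and 23.5 RPKM in LP and 124, 83.8 and 65.1 in tumour (log2 1.97 ± 0.22, adjusted p = 1.7e-06), and Ptgs1 (COX-1) 30.3 to 32.3 and 96.2 to 118 (log2 1.78). Alox5ap, which serves leukotriene synthesis, fell from 118 to 210 RPKM down to 50.4 to 96.4 (log2 -1.1). Of the 24 genes on that list, 7 were called higher and 3 lower. Nt5e (CD73), which makes adenosine outside the cell, held 0.78, 1.55 and 0.733 RPKM in LP and 11.4, 16.9 and 14.5 in tumour (14.7-fold, log2 3.88 ± 0.29, adjusted p = 1.8e-08). Sphk1, the kinase that makes sphingosine 1-phosphate, fell from 44.8, 29.2 and 30.7 RPKM to 0.844, 0.374 and 0.546 (61.3-fold, log2 -5.94).

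Transcription factors of the macrophage lineage had 7 of 46 higher and 11 lower (median -0.26), with 4 higher without tumour I. Etv3, a transcriptional repressor, held 67.7, 48.3 and 51.4 RPKM in LP and 9.57, 6.99 and 7.27 in tumour (log2 -2.81 ± 0.23, adjusted p = 4.7e-08). Sbno2, a transcriptional co-regulator, held 260, 160 and 154 RPKM in LP and 27, 29.9 and 27 in tumour (log2 -2.73 ± 0.16, adjusted p = 8.4e-10), and Stat3, which transmits the signals of several cytokines, fell by 1.39 on the log2 scale. Nr3c1, the glucocorticoid receptor, fell from 16.4 to 17.5 RPKM down to 6.51 to 6.85 (log2 -1.35), and Zeb2 by 0.97. Heat shock genes had 2 of 25 higher and 8 lower (median -0.50), and 1 higher without any 1 of LP III, LP IV and the tumour libraries. Hsph1 held 214, 36.7 and 39.7 RPKM in LP and 16.6, 12.6 and 11.2 in tumour, a log2 of -2.35, and -1.52 without LP II. Of 37 immediate-early genes, which also respond to tissue handling, 3 were called higher and 9 lower (5 higher without LP II, 5 lower without tumour VII), with Atf3 rising by 1.15 and Dusp1 falling by 0.90 on the log2 scale.

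**Figure D4:**
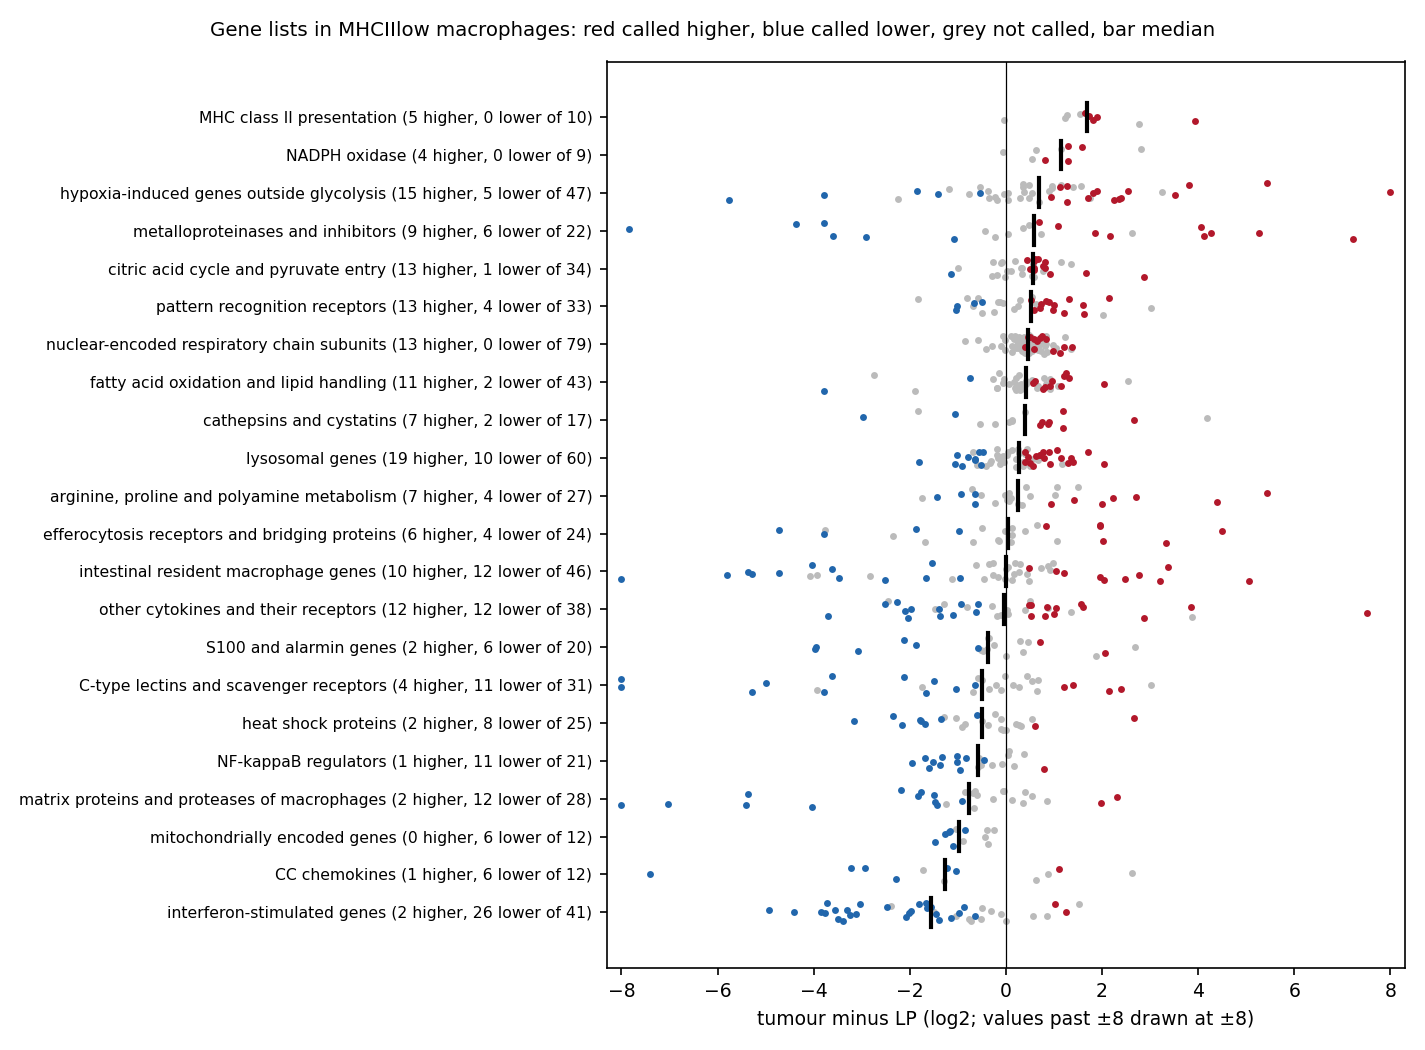
Tumour minus LP differences (log2, x) of the tested members of 22 gene lists in MHCIIlow macrophages, with 1 point per gene, coloured where called, and a bar at the list's median; values past 8 in either direction are drawn at 8. Interferon-stimulated genes lie mostly to the left (26 of 41 called lower) and NADPH oxidase and citric acid cycle genes mostly to the right.

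Whether a tumour difference belonged to MHCIIlow cells was tested as the difference between the tumour effects in MHCIIlow and MHCIIhi macrophages, the latter from tumour I, V and VII and LP III, IV and V. In this test, which used the same limma fit, 146 genes were called with a higher effect in MHCIIlow cells (1.13% of genes) and 42 with a lower effect (0.326%). Of the 146, 96 were also called higher in tumour MHCIIlow macrophages and 11 lower, and of the 42, 31 were also called lower. The counts depended on single libraries. For MHCIIhi macrophages they were 80 and 18 without LP III, 63 and 20 without LP IV, 73 and 18 without LP V, 108 and 23 without tumour I and 76 and 15 without tumour VII. For MHCIIlow macrophages they were 115 and 26 without LP II, 233 and 78 without LP III and 65 and 15 without tumour V. With tissue and pool as fixed terms in limma over the 12 macrophage libraries, 0 genes were called in either direction, 1267 and 808 genes had an unadjusted p under 0.05, and the lowest adjusted p was 0.074. In that fit, LP II and LP V each held a single macrophage subset and could not bear on the difference. It rested on LP III and IV and tumour I, V and VII, so its lack of calls does not show that the effects were equal. With the pool as a random block, 168 and 61 were called. The interferon-stimulated genes had 0 members called in either direction, and Ifit1 fell in both subsets. Metalloproteinases had 4 called with a higher effect, Mmp12 (difference of log2 effects 3.80, adjusted p = 0.015), Mmp13 (2.17) and Mmp14 (2.20) among them. The call of Mmp12 was lost without tumour V of MHCIIlow macrophages (adjusted p = 0.05). Those of Mmp13 and Mmp14 were lost without LP III, IV or V or tumour I or VII of MHCIIhi macrophages, or without LP II or tumour I or V of MHCIIlow macrophages (adjusted p = 0.051 to 0.12), and that of Mmp14 also without LP IV or tumour VII of MHCIIlow macrophages (adjusted p = 0.052 and 0.078). Dcstamp rose by log2 6.38 in MHCIIlow cells and by 1.54 in MHCIIhi cells (difference of effects 4.84, adjusted p = 0.00015). Its mean was 1.47 RPKM in LP and 115 in tumour MHCIIlow cells, against 33.3 and 98.5 in MHCIIhi cells. The gene with the lowest p was Emb (embigin), a partner of lactate transporters, at 36.6, 54.3 and 45 RPKM in LP and 87.1, 105 and 100 in tumour MHCIIlow cells (log2 1.12), against -0.82 in MHCIIhi cells (difference 1.94, adjusted p = 6.4e-05). Slc16a3, the lactate exporter MCT4, rose from 6.29, 10.5 and 8.33 RPKM to 43.6, 51.4 and 34.9 (log2 2.38), against 0.46 in MHCIIhi cells (difference 1.92). The nuclear lamina gene Lmnb1 (log2 1.56, difference 1.77) and the cytochrome Cyp4f18 (1.85, difference 1.87) complete the 5 with the lowest p. For all 5, the mean in LP was lower in MHCIIlow than in MHCIIhi cells. Emb was at 45.3 and 125 RPKM, Slc16a3 at 8.37 and 16.6, Lmnb1 at 9.28 and 37.5, and Cyp4f18 at 32.3 and 158. In tumour, Emb was at 97.6 and 71, Slc16a3 at 43.3 and 23, Lmnb1 at 27.3 and 32.3, and Cyp4f18 at 114 and 158.

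In the other direction, the demethylase-like Jmjd1c fell by 1.21 in MHCIIlow cells and differed by -0.09 in MHCIIhi cells (difference -1.12, adjusted p = 0.002). The focal adhesion gene Tns1 (difference -2.69), Runx1 (-1.23) and mt-Nd5 (-1.38) also had lower effects. Runx1, a haematopoietic transcription factor, held 15.3, 12.2 and 15 RPKM in LP and 7.51, 5.46 and 5.52 in tumour MHCIIlow cells, while its relative Runx3 rose from 12.7 to 17.9 RPKM up to 27.3 to 39.1 (log2 1.01). Higher effects in MHCIIlow cells were also found for Il1r2 (difference 3.59), Itgax (2.84) and the glutathione reductase Gsr (2.00). The antioxidant enzyme Nqo1 fell in MHCIIlow cells by 1.43 and more so in MHCIIhi cells, by 4.20 (difference 2.78, adjusted p = 0.011).

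**Figure D5:**
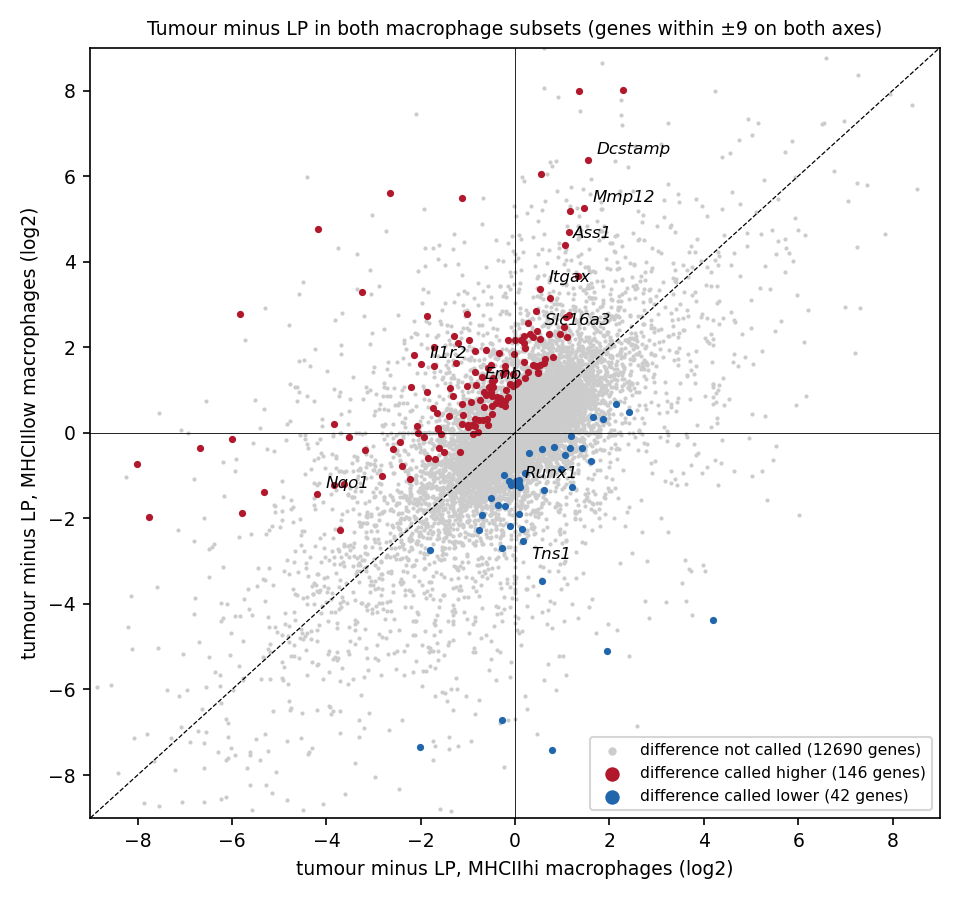
Tumour minus LP difference (log2) of each tested gene in MHCIIhi (x) and MHCIIlow (y) macrophages, with the 146 genes whose effect was higher and the 42 whose effect was lower in MHCIIlow cells coloured; 23 genes outside 9 in either direction are not drawn. Dcstamp, Mmp12 and Il1r2 lie above the dashed line of equal effects, and Tns1 and Runx1 below it.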

How the data were processed

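The authors prepared RNA from sorted cells (2 ng input, SMARTSeq v2 amplification), sequenced paired reads of 51 bases, aligned them with STAR 2.3 to mm10 and counted them per gene with featureCounts 1.5, as their processing notes and methods state. The deposited table holds log2 RPKM for 17301 genes and 24 libraries, scaled with edgeR (version not given in the sources used here). The values matched whole reads plus a prior of 0.25 in 100% of 415224 cells (tolerance 0.001 reads), which gave 12838061 to 33269269 reads on genes in the 6 libraries compared. No column was left unused. Such totals bound counting error only.

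Groups follow the labels. The test was a linear model with moderated variances that follow a trend with level (limma 3.58.1 under R 4.3.3), run on the deposited log2 values of all 24 libraries with 8 group means, so that all groups shared 1 estimate of the spread. Genes with a mean of at least 1 RPKM in at least 1 group were tested, p-values were adjusted by Benjamini-Hochberg over all 12878, and the threshold was 0.05. SE is the moderated standard error of the log2 difference. An exact permutation test of 3 against 3 libraries cannot go below 0.1 and was not used. The difference of tumour effects between MHCIIlow and MHCIIhi macrophages came from the same fit. On simulated data for the MHCIIlow comparison with 12878 genes, 100 genes were changed 2-fold and 100 were changed 4-fold. Of these, 36% and 96% were recovered, with 17 false calls. The real data had 3003 genes called and a median SE of 0.43. Whether the simulation matched their spread was not tested, so its rates are not estimates of recovery or of false calls in the real data.

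Genes were named by a rule: the 15 largest rises and falls of at least 10 RPKM whose libraries do not overlap, without predicted genes and genes of immunoglobulin or T cell receptor segments, the cell cycle or glycolysis, members of the gene lists that passed the threshold, up to 4 highly expressed members that did not, and the 5 lowest p in each direction for the difference. Not every gene under the rule is printed, and some are not reported here. Members of the 49 gene lists and 14 marker lists were chosen with earlier results of these data known, and lists were described by counts and medians, with no test. Genes with no reads in a group were given as bounds at 3 reads per library. Shared 51-base stretches, exon overlaps, coordinates and promoters came from RefSeq and annotation tables of GRCm38, in which 17190 symbols matched. Since the counting strand was not given in the sources used here, overlapping genes remain uncertain. Promoters were searched on both strands.

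Pool numbers name the donors. The MHCIIlow LP and tumour groups share no number, so no pairing was possible between them, but libraries of different cell types from the same pool do share one. Over 29 such pairs, deviations from the group means correlated at -0.066 to 0.25 (median 0.017). Alternatives were other sample sets, pseudocounts of 1 and 0.1, no filter or a minimum of 5 RPKM, quantile and median scaling, library weights, pool blocks, voom on the recovered reads, library sizes as summed reads, and leaving out each library. Python 3.11.15 with numpy 2.4.6, pandas 2.3.3, scipy 1.17.1 and matplotlib 3.10.9 was used for tables and figures.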

Additional observations from a re-analysis of the deposited data

Results flagged for a closer look

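Genes named in the report whose tumour effect differed between MHCIIlow and MHCIIhi macrophages by the test of the difference itself (limma, adjusted p under 0.05) are given with that difference on the log2 scale. It was positive for Dcstamp (4.84), Mmp12 (3.80), Il1r2 (3.59), Ass1 (3.36), Itgax (2.84), Nqo1 (2.78), Mmp14 (2.20), Mmp13 (2.17), C3 (2.10), Gsr (2.00), Emb (1.94), Slc16a3 (1.92), Cyp4f18 (1.87), Lmnb1 (1.77), Il1b (1.67), Runx3 (1.20) and Psap (1.12). It was negative for Tns1 (-2.69), mt-Nd5 (-1.38), Runx1 (-1.23), Jmjd1c (-1.12) and Sbno2 (-0.92). For Il1b, Runx3 and Sbno2 the call was lost without any 1 of 9 or 10 of the 12 macrophage libraries, with adjusted p-values of 0.052 to 0.11, for Psap without LP IV or LP V of MHCIIhi or tumour V of MHCIIlow macrophages, and for C3 without LP IV or tumour VII of MHCIIhi macrophages. Of these 22 calls, 0 held under every setting run, and 13 were lost under a setting other than the fixed pool block or leaving a library out. A positive difference can come from either subset and from either tissue. Il1r2 rose by 1.60 in MHCIIlow cells and was at -1.99 in MHCIIhi cells, and Nqo1 was lower in both.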

How the results depend on the processing

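In the MHCIIlow comparison, both counts of called genes stayed within 1.5 times of 1483 and 1520 under every setting run. Leaving out each library in turn gave 1085 to 1344 higher and 1201 to 1436 lower. The test of the difference between subsets was less stable. Its counts, 146 higher and 42 lower, were 52 higher in a fit of the 12 macrophage libraries alone, 256 and 214 with 1 RPKM added, 72 lower with 0.1 RPKM added, 132 lower after quantile normalization, 292 and 141 with library weights, 330 and 209 with voom, 77 lower with library sizes as summed reads, and 63 to 233 higher and 15 to 78 lower with 1 library left out. With the pool as a fixed replicate block, which draws the difference only from pools that held both subsets, the counts were 0 and 0. With the pool as a random replicate block they were 168 and 61, and 1482 and 1524 in the MHCIIlow comparison. Of 145 named genes that were called, none changed sign and 112 were called under every setting; 24 were lost in a fit of the 6 libraries alone, 14 when a library was left out, and at most 6 under any other setting. For the 22 named genes whose difference between subsets was called, 0 changed sign and 0 kept the call under every setting. The fixed replicate block by itself removed all of these calls. Of the 22, 13 also lost the call under a setting other than that block or leaving a library out. The cause of these losses was not tested. Hif1a, not called, was at -0.02 with centred libraries and with library weights, and between -0.07 and 0.14 with 1 library left out (-0.04 without LP III, -0.07 without tumour I). List counts moved by over 1.5 times in 108 of 756 cases with a library left out and in 185 of 1512 under the other settings. With 3 pools a group, the median SE of 0.43 leaves small differences undetected.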

Other observations

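Further gene lists are given for MHCIIlow macrophages by their counts of called members, beside 11.5% higher and 11.8% lower over all tested genes. Of 20 S100 and alarmin genes, 2 were called higher and 6 lower (median -0.37). S100a6, a calcium-binding protein, held 36.8, 22.6 and 25 RPKM in LP II, III and IV and 2.46, 0.827 and 2.68 in tumour I, V and VII (log2 -3.95 ± 0.42, adjusted p = 1.1e-06). Its relative S100a10 fell from 117, 87.6 and 101 RPKM to 13.4, 11.1 and 11.4 (log2 -3.08), and Anxa2, the annexin that S100a10 binds, from 476, 292 and 339 to 83.1, 100 and 69.1 (log2 -2.12 ± 0.23, adjusted p = 1.2e-06). Tumour libraries lay below LP libraries for all 3, and most genes called did not overlap. Hmgb2, a chromatin protein that is abundant in dividing cells, rose from 2.26 to 3.55 RPKM up to 11.1 to 15.8 (log2 2.07).

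Surface regulators of immune responses had 6 of 26 higher and 3 lower (median -0.09). Sirpa, which receives the CD47 signal that blocks phagocytosis, rose from 41.4, 71.6 and 61.8 RPKM to 168, 191 and 168 (log2 1.63 ± 0.16, adjusted p = 4.3e-07), and Cd52 by a log2 of 2.97. Cd200r1, an inhibitory receptor, fell from 37.6 to 60.9 RPKM down to 10.5 to 11.8 (log2 -2.16), and the costimulatory receptor Cd40 from 25.6 to 42.9 down to 7.15 to 12.4 (log2 -1.97). Of 26 iron and haem genes, 2 were higher and 5 lower (median -0.05). The metal importers Slc39a14 and Slc11a2 were among those that fell, Slc39a14 from 20.9 to 23.1 RPKM down to 2.98 to 4.32 (log2 -2.59 ± 0.20, adjusted p = 3e-08) and Slc11a2 by 2.04 on the log2 scale. Bach1, a haem-sensing repressor, held 27.7, 22 and 35.7 RPKM in LP and 6.54, 5.02 and 2.49 in tumour (log2 -2.69). The desaturase Scd2 rose from 2.1 to 2.3 RPKM up to 18.3 to 22.2 (log2 3.16), while 5 of 37 genes of lipid synthesis were higher and 2 lower (3 higher without LP IV or tumour V, and 1 lower without LP II, tumour V or tumour VII).

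The remaining lists gave these counts of members higher and lower. Redox enzymes had 7 and 3 of 35, survival and death genes 8 and 9 of 36, C-type lectins and scavenger receptors 4 and 11 of 31, chemoattractant receptors 5 and 3 of 19, and fatty acid oxidation genes 11 and 2 of 43. Genes of lipid-associated macrophages had 8 and 4 of 24, purinergic and sphingosine genes 6 and 8 of 29, unfolded protein response genes 6 and 4 of 26, and amino acid and stress response genes 5 and 5 of 31. Angiogenic factors had 2 and 3 of 18, growth factors 2 and 3 of 17, the TGF-beta pathway 2 and 3 of 22, the Ms4a family 2 and 1 of 10, clock genes 3 and 1 of 15 and Fc receptors 0 and 0 of 9. Several of these counts moved by over 1.5 times with 1 library left out. Without LP II, members called higher numbered 5 for lipid-associated macrophages, 3 for purinergic and sphingosine genes, 0 for growth factors and 1 for the TGF-beta pathway, and members called lower numbered 3 for amino acid and stress response genes and 0 for clock genes. Without LP III, LP IV or tumour V, 7 lectins and scavenger receptors were lower and 3 unfolded protein response genes higher. Without tumour V, 7 fatty acid oxidation genes and 2 amino acid and stress response genes were higher, and the latter count was 3 without LP IV or tumour VII. Without tumour I, 6 redox enzymes were lower, and without tumour VII, 2 unfolded protein response genes were lower. Fc receptors had 2 higher without LP III or tumour VII and 1 lower without LP III. Growth factors had 0 to 1 higher without tumour I or V and 1 lower without tumour VII, and the TGF-beta pathway 0 to 1 higher without LP IV, tumour V or tumour VII and 1 lower without tumour I. The Ms4a family had 1 higher without LP III, LP IV, tumour V or tumour VII and 2 lower without tumour I, and clock genes 0 lower without LP III or tumour I. Cell cycle genes had 33 and 1 of 112 and glycolysis genes 19 and 4 of 35. In the sets of tested markers, 4 of 13 for macrophages were higher and 1 lower, 5 of 22 for neutrophils higher and 1 lower, 6 of 16 for monocytes higher and 2 lower, 2 of 15 for dendritic cells higher and 2 lower, 2 of 20 for epithelium higher, 1 of 6 for endothelium higher and 2 lower, 2 of 16 for B and plasma cells lower, 1 of 8 for mast cells higher, 3 of 5 for erythroid cells higher, and the 1 for glia lower. None of 15 for T and NK cells, 5 for eosinophils or 14 for keratinocytes was called.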
